A study of Mus musculus with 14 samples.

Results

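Synaptic vesicle and release genes were examined as a set of 43 listed genes, which cover SNARE proteins, synaptotagmins, SNARE regulators, vesicle proteins, endocytosis proteins, active zone scaffolds, and neuroplastin with the pentraxins. The list names genes by function, and it was drawn up with earlier results of these data known. Each gene took, among its probe sets that are annotated to it alone, the one with the highest mean log2 signal, and 42 of the 43 genes had such a probe set, out of 18193 genes in all. The exception was Nptxr, the neuronal pentraxin receptor, whose 3 probe sets are annotated to several genes, so that it was not analysed here. The cells were 14 single tdTomato+ retinal ganglion cells (RGCs) of adult mice on a mixed background. The mice carried PV-Cre, which places Cre recombinase under the parvalbumin gene Pvalb, together with the Ai9 reporter, so that cells in which Cre has been active turn red with tdTomato. Retinas were taken apart with papain, red cells were picked by pipette, and each cell was hybridised to its own Affymetrix Mouse430_2 array after oligo-dT priming and 35 PCR cycles. Libraries were screened by PCR for Sncg and against transcripts of rods and Müller glia, fluorescence was uneven so that bright cells were favoured, no animal is named for any cell, and all cells form 1 group, so no groups were compared and no test was made.

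When an action potential reaches a nerve terminal, calcium enters beside the active zone and vesicles that are already docked there fuse within a fraction of a millisecond. Fusion is driven by a SNARE complex formed by a synaptobrevin (VAMP) on the vesicle with syntaxin and Snap25 on the plasma membrane, synaptotagmins sense the calcium, complexins hold and help the complex, and NSF with its SNAP adaptors takes it apart afterwards. The membrane is then recovered by clathrin, dynamin, endophilin and synaptojanin. RGCs release glutamate onto neurons of the brain at conventional synapses, whereas photoreceptors and bipolar cells release it at ribbon synapses, which use in part other family members such as Cplx3, Cplx4 and Stx3.

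The promoters of Syn1, Syp, Sv2a and Sv2c are shown because they belong to genes the results turn on. Syn1 and Syp were detected throughout and varied together from cell to cell, while the paralogs Sv2a and Sv2c were detected in 14 cells and in 1 cell. Each line gives the 250 bases before the gene's start in RefSeq on build GRCm38.p6, from 5′ to 3′ on the gene's strand, and capitals mark matches on either strand to the GC box (GGGCGG, or CCGCCC on the other strand) or the cyclic AMP response element (TGACGTCA). The promoters lie at chrX:20920919-20921168 on the minus strand for Syn1, chrX:7638330-7638579 on the plus strand for Syp, chr3:96180977-96181226 on the plus strand for Sv2a, and chr13:96132578-96132827 on the minus strand for Sv2c.
Syn1: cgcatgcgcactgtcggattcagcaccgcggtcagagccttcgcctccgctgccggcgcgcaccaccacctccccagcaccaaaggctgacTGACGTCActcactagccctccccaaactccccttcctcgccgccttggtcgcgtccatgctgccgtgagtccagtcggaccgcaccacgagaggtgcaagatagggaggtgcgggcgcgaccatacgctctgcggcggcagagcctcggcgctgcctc
Syp: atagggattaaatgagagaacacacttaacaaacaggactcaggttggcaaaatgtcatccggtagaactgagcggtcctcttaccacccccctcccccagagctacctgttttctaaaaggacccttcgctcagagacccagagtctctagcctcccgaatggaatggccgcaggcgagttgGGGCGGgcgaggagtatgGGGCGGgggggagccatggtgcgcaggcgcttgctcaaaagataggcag
Sv2a: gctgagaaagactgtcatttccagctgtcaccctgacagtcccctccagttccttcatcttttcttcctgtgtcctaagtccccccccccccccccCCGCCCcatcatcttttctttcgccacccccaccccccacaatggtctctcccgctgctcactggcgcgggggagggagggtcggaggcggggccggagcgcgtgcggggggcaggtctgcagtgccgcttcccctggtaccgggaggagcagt
Sv2c: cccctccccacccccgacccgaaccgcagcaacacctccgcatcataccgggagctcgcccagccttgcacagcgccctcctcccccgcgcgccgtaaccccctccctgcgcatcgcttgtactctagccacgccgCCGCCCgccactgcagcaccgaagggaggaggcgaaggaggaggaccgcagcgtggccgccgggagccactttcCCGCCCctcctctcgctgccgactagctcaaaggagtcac
The GC content was 68.0% for Syn1, 56.4% for Syp, 66.0% for Sv2a and 70.8% for Sv2c. Sv2a held 1 GC box and Sv2c held 2, and the part of this motif in detection was not tested. None of the 4 promoters held more than 1 kind of motif among the 5 searched on both strands. The RefSeq table held 42 promoters of 32 of the genes. A GC box was present in 57.14% of these and in 32.74% of all 32851 promoters, CACGTG (an E-box) in 11.9% and 6.021%, CCAAT in 23.81% and 33.85%, TATAAA in 4.762% and 12.37%, and TGACGTCA in 4.762% and 1.546%. The median GC content was 61.6% against 52.4% for all promoters, so the motifs rich in G and C and those rich in A and T were counted against different base compositions.

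Detection in a cell required a signal of 8 times the array's median or more, which placed the threshold between signals of 64.16 in cell 14 and 439.7 in cell 1. Between 2540 genes (cell 5) and 6849 genes (cell 12) were detected per cell. Markers of RGCs were detected broadly, with 9 to 13 of 13 per cell, and Sncg, Nefl, Nefm, Thy1 and the vesicular glutamate transporter Slc17a6 were found in all 14 cells. Pvalb was detected in 13 cells and read 7.27 in cell 5. Cells 3 and 6 each showed 10 of 13 rod markers, against 2 to 4 in the other cells, and cell 6 showed 7 of 13 Müller glia markers. In summed signal, the rod markers ranged from 18230 to 181800, a figure that includes Gnb1, which was detected in every cell. The Müller glia marker Glul, which encodes glutamine synthetase and belongs to the PCR screen, was detected in 8 cells at 417 to 15865. Of the other Müller glia markers, Apoe, Aqp4, Sox9 and Crym were detected in none, and Slc1a3, Vim, Kcnj10 and Abca8a in 1 cell each. Rlbp1 was detected in 4 cells, Car14 in 6, Dkk3 in 7 and Clu in 12. Amacrine markers numbered 0 to 3 of 12 per cell. Gad1, Chat and Th were detected in none, Gad2 in cell 1 at 4015, Dab1 in cell 8 at 7208, Slc6a9 in 6 cells and Pax6 in 12. Bipolar markers numbered 0 to 4 of 10, with Trpm1 and Cabp5 in none, Otx2 in cell 2, Pcp2 in 4 cells, Grik1 in 5, Prkca in 8 and Isl1, which also marks RGCs, in 10.

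The listed release genes were found in more cells than most genes. Because the list was drawn up with earlier results of these data known, the shares below describe the listed genes alone. Of the 42 genes, 16 were detected in all 14 cells (38.1%), against 2.64% of all genes. In at least 7 cells, 34 were detected (81.0%), against 24.8% of all genes. None of the 42 was missing from every cell, whereas 41.8% of all genes were. The median gene of the set was detected in 13 cells and the median of all genes in 1. The genes found in all cells were the SNARE proteins Snap25, Vamp1 and Vamp2, the synaptotagmins Syt1 and Syt11, the regulators Cplx1, Nsf and Napb, the vesicle proteins Sv2a, Syn1 and Syp, the endocytosis proteins Amph, Sh3gl2, Synj1 and Snap91, and the secreted pentraxin Nptx1. A further 18 genes were detected in 7 to 13 cells and 8 in 1 to 6 cells. Without cells 3 and 6 the number found in all remaining cells was also 16, against 2.952% of all genes. Without cells 5 and 13, in which the fewest genes were detected, 23 genes were found in all 12 remaining cells, and the share over all genes was higher too, at 4.656%. When a gene was given the mean of all its probe sets in place of the highest, a setting in which a weak probe set lowers the value of its gene, 7 genes of the set and 1.649% of all genes were found in all cells.

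**Figure D1:**
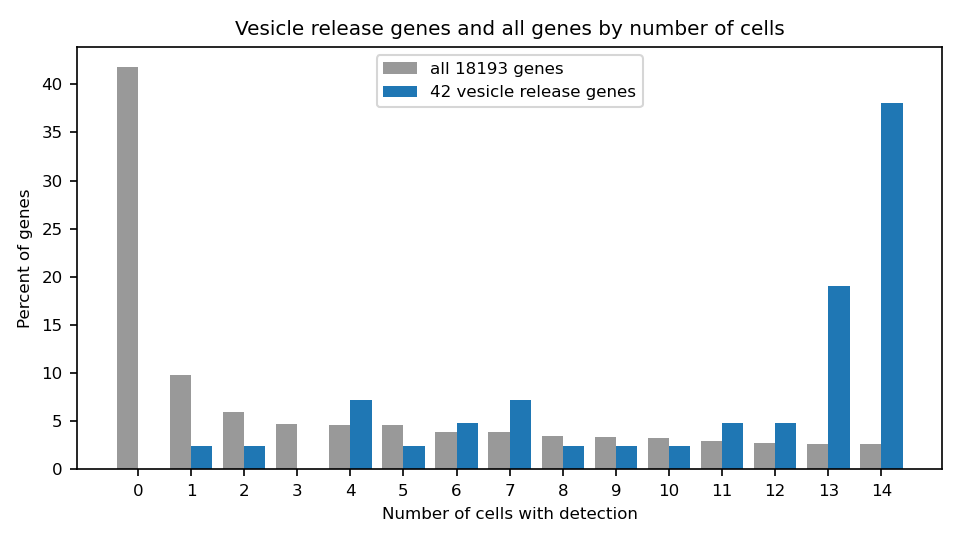
Percent of the 42 vesicle release genes (blue) and of all 18193 genes (grey), by the number of cells, from 0 to 14, in which each was detected. The blue bars stand highest at 14 cells (16 genes, 38.1%) and 13 cells (8 genes, 19.05%), and the tallest grey bar, 41.8%, is at 0 cells.

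Within the SNARE proteins, the fusion partners Snap25, Vamp1 and Vamp2 were found everywhere, and the plasma membrane syntaxin Stx1a was not. Snap25, the plasma membrane SNARE that supplies a pair of helices to the complex, had signals from 26687 in cell 6 through a median of 69010 to 126870 in cell 10. Its SD was 0.66 on the log2 scale, and its other probe set was also detected in all 14 cells. Vamp1, the synaptobrevin known from fast-firing neurons, had a lowest signal of 195 in cell 13, a median of 32150 and a highest of 61365 in cell 5. Every cell except cell 13 was at or above 15240, so the low value belongs to a single cell, whose detection threshold was 108.3. Vamp2, the major synaptobrevin of forebrain vesicles, ranged from 3886 in cell 1 through a median of 10480 to 37917 in cell 13, the cell with the lowest Vamp1. Its other probe set was detected in 1 cell and that of Vamp1 in 3. Cell 13, with 2702 genes detected, also held the highest signals of Cplx1, Cplx2, Nsf, Syn1, Syn2, Syp, Scamp1, Amph, Sh3gl2 and Snap91. Its high Vamp2 is thus not particular to Vamp2.

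Stx1a, the syntaxin of the fusion complex, was detected in cells 3, 4, 10 and 12 at 461 to 3168 and read at most 76.4 in the other 10 cells. The detected and undetected cells were thus well separated, and the second probe set of Stx1a was detected in 3 cells. The chosen Stx1a probe set is of a kind whose probes may also bind related transcripts. Vamp3, or cellubrevin, which serves recycling endosomes in most cell types, was detected in cells 1, 4, 8 and 9 at 444 to 3493 and read at most 99.9 elsewhere. The other Vamp3 probe sets were detected in 1, 2, 2 and 5 cells, and 1 of them read 1176 in cell 12, where the chosen one read 26.7. The endosomal syntaxins Stx7 and Stx12 were each detected in 13 cells. Stx7 was missing in cell 14, where it read 31.4, and ranged from 283 to 17531 in the others. Stx12 was missing in cell 13, lay just above threshold in cell 5, and reached 15068 in cell 6.

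Among the 5 synaptotagmins, Syt1 and Syt11 were found in every cell, and Syt2, Syt4 and Syt5 divided the cells. Syt1, the main calcium sensor of fast release, ranged from 1467 in cell 5 through a median of 23940 to 57109 in cell 8. Cell 5 stood apart, since the next lowest signal was 8789. The other Syt1 probe sets were detected in 1, 3 and 5 cells. Syt11, a synaptotagmin that binds calcium poorly, ranged from 6843 to 36434 with a median of 10950 and an SD of 0.74 on the log2 scale. The other Syt11 probe sets were detected in 8, 12, 13 and 13 cells.

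Syt2, the fast calcium sensor known from fast-spiking neurons, was detected in 7 cells. Its signals were 8121 in cell 1, 901 in cell 2, 1761 in cell 4, 9633 in cell 7, 871 in cell 9, 8156 in cell 11 and 12228 in cell 12. In the other 7 cells it read 2.89 to 55.5, so no cell lay between 55.5 and 871. The cells with Syt2 had 4342 to 6849 genes detected (median 5263) and those without it 2540 to 5558 (median 3624), and over the 14 cells the Syt2 signal had r = 0.73 with the number of genes detected. The part of depth in the presence of Syt2 was not tested. The other Syt2 probe sets were detected in 1 and 3 cells, all of them cells in which the chosen one was detected.

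Syt5, which is found on dense-core and synaptic vesicles, was detected in cells 6, 8, 10 and 12, at 182, 518, 4595 and 1037, and read at most 85.0 in the others. Syt2 and Syt5 were both detected in cell 12 alone, and neither was detected in cells 3, 5, 13 and 14. Syt4, a synaptotagmin that like Syt11 binds calcium poorly, was detected in 10 cells at 1548 to 19188 and read 8.45 to 62.8 in cells 5, 11, 13 and 14. Its second probe set was detected in 9 of the same 10 cells and in none of those 4. The RGC factor Isl1 was detected in the same 10 cells as Syt4, at 1066 to 33760, and read at most 56.2 in the 4 others. Other RGC markers did not follow Syt4 in this way, since 8 of 13 were detected in all 14 cells. In the 4 cells without Syt4, Pou4f1 was detected in cells 11, 13 and 14, Rbpms in cell 5, Ebf3 in cell 11 and Ebf1 in none. RGC markers, Isl1 included, numbered 11 to 13 of 13 in the cells with Syt4 and 9 or 10 in the cells without it. Genes detected numbered 3570 to 6849 and 2540 to 4342. Their part in the absence of Syt4 was not tested.

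**Figure D2:**
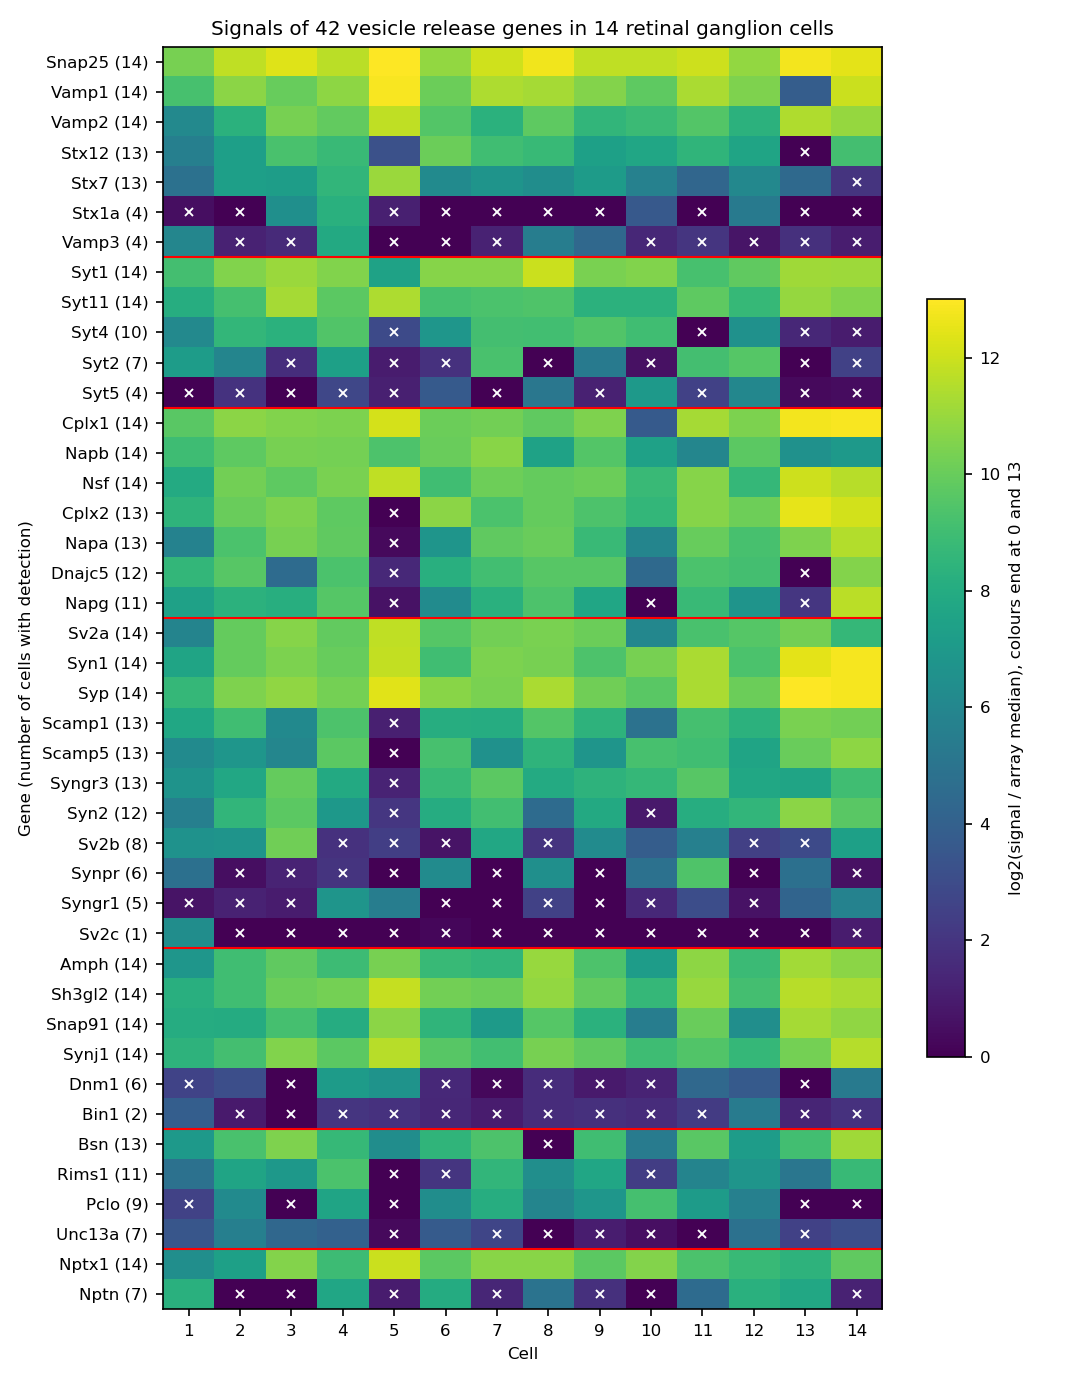
Signals of the 42 vesicle release genes (rows, grouped by role between red lines, with brackets giving how many cells had detection) in the 14 cells (columns), as log2 of the signal over the array median, with colours ending at 0 and 13 and white crosses where the gene was not detected. Detection is nearly complete in the first rows of most blocks, cell 5 has the most crosses (21 of 42), and crosses cluster in Stx1a, Vamp3, Syt5, Sv2c and Bin1, which have 4, 4, 4, 1 and 2 cells with detection.

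All 7 regulators and chaperones of the SNARE complex were detected in at least 11 cells, whereas 24.8% of all genes were detected in at least 7. Cplx1, the complexin of most fast synapses, ranged from 477 in cell 10 through a median of 24120 to 95082 in cell 13. Cell 10 was the exception, since every other cell was at or above 13086. The other 2 Cplx1 probe sets were also at their lowest or next to it in cell 10, at 347 and 14.6. Cplx2, the complexin best known from forebrain excitatory neurons, was detected in 13 cells at 9085 to 80350 and read 3.91 in cell 5. A second Cplx2 probe set, of a kind not expected to bind related transcripts, was detected in the same 13 cells and read 21.1 in cell 5. Each complexin was therefore low or undetected in 1 cell, Cplx1 in cell 10 and Cplx2 in cell 5. The other complexin was detected there, Cplx2 at 14054 in cell 10 and Cplx1 at 37819 in cell 5.

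Nsf, the ATPase that takes SNARE complexes apart, ranged from 6561 through a median of 17070 to 56023 and had an SD of 0.78 on the log2 scale. The other Nsf probe sets were detected in 0, 1 and 10 cells. The adaptors of Nsf are Napa, Napb and Napg (alpha-, beta- and gamma-SNAP). Napa was detected in 13 cells at 1572 to 23231 and read 10.4 in cell 5. Napb, the adaptor found mainly in neural tissue, was detected in all 14 cells, from 934 in cell 11 through a median of 12910 to 27522 in cell 1. Low Napb signals lay in cells 11, 14, 13 and 8, at 934, 1064, 1312 and 2620. Of these, cells 11, 13 and 14 were also without Syt4. The other Napb probe sets disagreed on cells 8 and 14, with 11790 and 5982 in the brightest of them, and were below threshold in cells 11 and 13. Napg was detected in 11 cells at 1075 to 25456 and read at most 56.6 in cells 5, 10 and 13. Dnajc5, the vesicle chaperone known as cysteine string protein, was detected in 12 cells at 359 to 21347 and read at most 23.4 in cells 5 and 13.

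The proteins of the vesicle itself held 3 genes found in every cell and the most restricted gene of the set. Syp, or synaptophysin, a major vesicle membrane protein, ranged from 12834 in cell 4 through a median of 26430 to 119589 in cell 13. The other Syp probe set was detected in no cell. Syn1, or synapsin 1, which tethers vesicles to each other, ranged from 7396 in cell 6 through a median of 20090 to 76138 in cell 13. Sv2a, a vesicle glycoprotein and the target of the antiepileptic drug levetiracetam, ranged from 2392 in cell 10 through a median of 13440 to 28161 in cell 5. These were the genes found in every cell, and the highest signals of Syp and Syn1 lay in the same cell, as did those of several other listed genes. Syn2 was detected in 12 cells at 338 to 23428 and read 34.2 in cell 5 and 68.4 in cell 10. The other Syn2 probe sets were detected in 0, 0, 5, 6 and 10 cells. Syngr3, Scamp1 and Scamp5, which are further membrane proteins of vesicles and their carriers, were each detected in the 13 cells other than cell 5. Their signals there were 2496 to 14811 for Syngr3, 1077 to 17900 for Scamp1 and 945 to 21564 for Scamp5. Other probe sets gave fewer cells, with 9 for Syngr3, 3 for Scamp1 and 0 for Scamp5.

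Sv2b, another SV2 protein, was detected in cells 1, 2, 3, 7, 9, 10, 11 and 14 at 521 to 17474, and it read 22.9 to 103 in the other 6 cells. Its second probe set was detected in 7 cells, and counting either probe set gave 11 cells. Sv2c, the SV2 protein best known from the basal ganglia, was detected in cell 1 at 4515 and read at most 16.7 in the other 13 cells. Cell 1 was also the only cell with the amacrine marker Gad2, at 4015, and had the highest summed signals of amacrine (24910), Müller glia (73680) and cone markers (4324), whose part in the Sv2c signal was not tested. Synpr, or synaptoporin, a relative of synaptophysin, was detected in cells 1, 6, 8, 10, 11 and 13 at 376 to 10001 and read at most 40.0 elsewhere. Syngr1, or synaptogyrin 1, was detected in cells 4, 5, 11, 13 and 14 at 124 to 1125, and its highest undetected signal was 105, so that the groups nearly touched. Another Syngr1 probe set was detected in cells 5, 6, 7 and 10, with up to 6295 in cell 5, and the probe sets shared cell 5 alone. The cells assigned to Syngr1 therefore depend on the probe set.

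Of the endocytosis proteins, 4 of 6 were found in every cell, against 2.64% of all genes. Sh3gl2, or endophilin A1, which bends the budding membrane, ranged from 7578 through a median of 16730 to 42354, with an SD of 0.68 on the log2 scale. Synj1, or synaptojanin 1, the lipid phosphatase that helps to strip the clathrin coat, ranged from 6454 through a median of 17620 to 25086, with an SD of 0.66. By the chosen probe sets, these genes were among the steadiest of the set. The other Sh3gl2 probe sets were detected in 10 and 13 cells and those of Synj1 in 0, 10 and 12. Amph, or amphiphysin, which recruits dynamin, ranged from 5080 to 31485 with a median of 9109. Snap91, the clathrin adaptor AP180, ranged from 1382 to 32682 with a median of 7793. The other Snap91 probe set was detected in no cell. Bin1, or amphiphysin 2, was detected in cells 1 and 12, at 823 and 700, and read at most 115 elsewhere. Dnm1, the neuronal dynamin that cuts the vesicle free, was detected in cells 2, 4, 5, 11, 12 and 14 with signals up to 1439. It read 339 in cell 1, where the threshold was 439.7, so the ranges of detected and undetected signals overlapped and the call in cell 1 follows from its higher threshold. Its other probe set was detected in no cell. Dnm3, another dynamin of neurons, was detected in all 14 cells at 1702 to 46626.

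No active zone protein was detected in every cell, and all 4 were detected in at least 7. Of all genes, 2.64% were detected in every cell and 24.8% in at least 7, so the lack of a gene found in every cell does not set these 4 apart. Bsn, or bassoon, a giant scaffold, was detected in 13 cells at 679 to 21460 and read 8.14 in cell 8, and its other probe sets were detected in no cell. Pclo, or piccolo, its partner scaffold, was detected in 9 cells at 811 to 21006, and among its 5 undetected cells the highest signal was 320 in cell 1. Its other probe sets were detected in 7 and 8 cells, and 12 cells had at least 1 of the 3. Rims1, which links vesicles to calcium channels, was detected in 11 cells at 471 to 6599 and read at most 189 in cells 5, 6 and 10. Unc13a, or Munc13-1, the priming factor, was detected in 7 cells at 66.7 to 716. Its highest undetected signal was 101, so that detected and undetected cells overlapped, and at a fixed signal of 1000 it was detected in no cell.

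Nptx1, a secreted neuronal pentraxin that gathers glutamate receptors across the synapse, was found in every cell. Its signals ranged from 2527 in cell 2 through a median of 10750 to 57234 in cell 10. Its other probe set was detected in 9 cells and read 1.92 to 5.24 in cells 1, 5, 11, 13 and 14. Nptn, or neuroplastin, an adhesion protein that associates with plasma membrane calcium pumps, was detected in cells 1, 4, 6, 8, 11, 12 and 13 at 346 to 16812 and read at most 73.1 in the other 7 cells. Its second probe set was detected in no cell.

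Paralogs were compared through the cells in which they were found, since signals of different probe sets do not share a scale. Of 21 pairs of paralogs, 10 were discordant in at least 7 cells, meaning that exactly 1 gene of the pair was detected there. In most of these pairs the broadly detected gene covered every cell and its partner a part of them. The number of discordant cells in such a pair follows from the number of cells of the partner alone. The same count over all pairs of genes was not made, so the 10 pairs describe how widely each gene was detected. Sv2a was detected without Sv2c in 13 cells, Amph without Bin1 in 12, Vamp1 and Vamp2 without Vamp3 in 10 each, Syt1 without Syt5 in 10, Syp without Synpr in 8, and Syt1 without Syt2 in 7. Syngr3 was detected without Syngr1 in 9 cells and Syngr1 without Syngr3 in cell 5. In the pair Syt2 and Syt5, 6 cells had Syt2 alone, 3 had Syt5 alone, 1 had both and 4 had neither. In 5 pairs both genes were detected in at least 13 cells: Vamp1 with Vamp2, Stx7 with Stx12, Cplx1 with Cplx2, Napa with Napb, and Scamp1 with Scamp5.

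**Figure D3:**
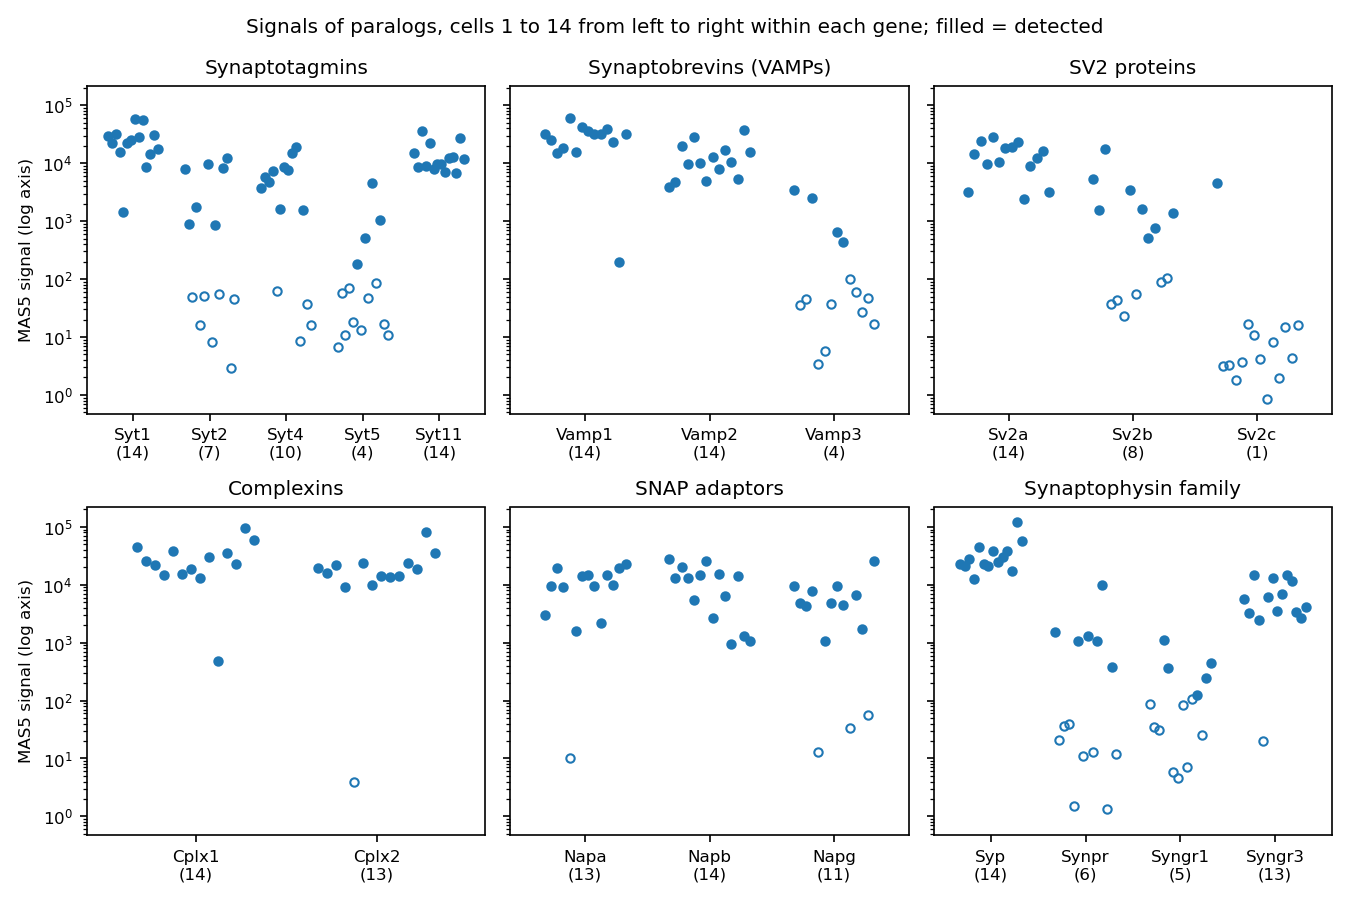
MAS5 signals (log axis) of 6 paralog families, with cells 1 to 14 from left to right within each gene, filled points for cells with detection and open points for cells without, and brackets giving how many cells had detection. Heights are comparable within a gene and not between genes. Syt2 splits into 7 filled points at or above 871 and 7 open points at or below 55.5, and Sv2c has a single filled point.

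Signals of paralogs had correlations of either sign from cell to cell. Over the 14 cells, Pearson's r of log2(signal + 32) had a median of −0.07 over the 21 pairs, with 8 pairs above 0 and 13 below, from −0.49 for Sv2a with Sv2c to 0.75 for Scamp1 with Scamp5. Neither Scamp gene was detected in cell 5, and without the 2 cells farthest from the Scamp1 median r was −0.15. The median depends on the processing, since it was 0.22 with the mean of all probe sets of a gene and −0.21 without cells 5 and 13. Vamp1 and Vamp2 had r = −0.47 (rho = −0.17), and r = 0.35 without the 2 farthest cells. These correlations are descriptions, since each array shares 1 library, 1 scaling factor and 1 depth across all genes.

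Across cells, the number of release genes detected ranged from 21 of 42 in cell 5 to 37 in cells 1, 4 and 12, with a median of 33. The mean share was 77.2% ± 9.96 (SD, n = 14), against 25.2% ± 7.21 of all genes, and it was the higher share in 14 of 14 cells, by 2.34 to 4.49 times. Against the number of all genes detected it had r = 0.76 and rho = 0.77 over the 14 cells, and r = 0.67 without the 2 farthest cells, a description of values that share a library and its depth. Cell 5, with the fewest genes detected, also lacked Pvalb. Of the 8 genes missing in exactly 1 cell, 5 were missing in cell 5: Cplx2, Napa, Syngr3, Scamp1 and Scamp5. Cell 5 kept high signals of others, with the highest Vamp1, Stx7, Sv2a and Synj1 signals of any cell. All arrays were scaled to the same trimmed mean, and the part of this scaling in those high signals was not tested.

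**Figure D4:**
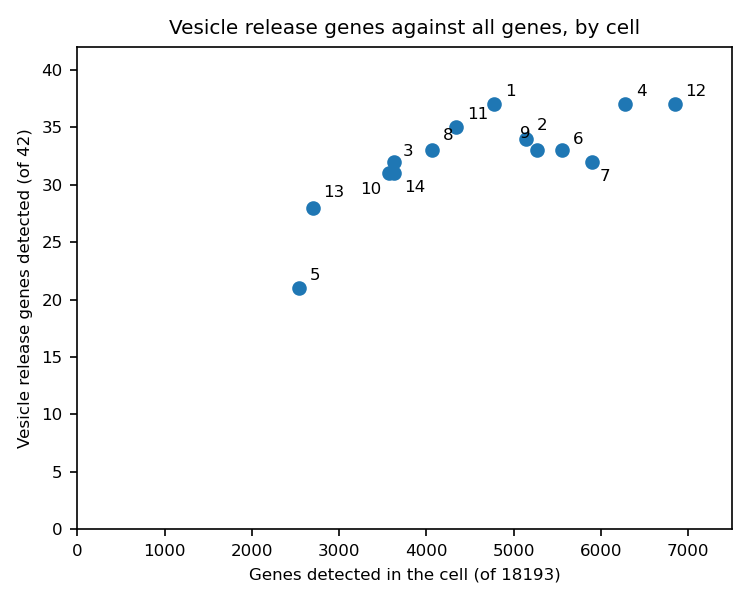
Number of the 42 vesicle release genes detected (vertical axis) against the number of all 18193 genes detected (horizontal axis), with 1 numbered point per cell. Cell 5 is lowest on both axes, at 21 and 2540, and the cells with 4069 or more genes detected lie between 32 and 37.

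The 16 genes found in every cell differed in how much the signal of their chosen probe set varied. Their SD over the 14 cells had a median of 1.02 on the log2 scale, against 1.15 (quartiles 0.83 and 1.58) for the 480 genes of any kind detected in every cell. Synj1 (0.66), Snap25 (0.66), Sh3gl2 (0.68), Syt11 (0.74), Nsf (0.78) and Syp (0.81) lay under the first quartile. Vamp1 (2.01), Cplx1 (1.77) and Napb (1.72) lay over the upper one. A single cell decided the first 2 of these values, which were 0.58 for Vamp1 without cell 13 and 0.84 for Cplx1 without cell 10, a step added after the values were seen. Napb had 4 low cells.

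**Figure D5:**
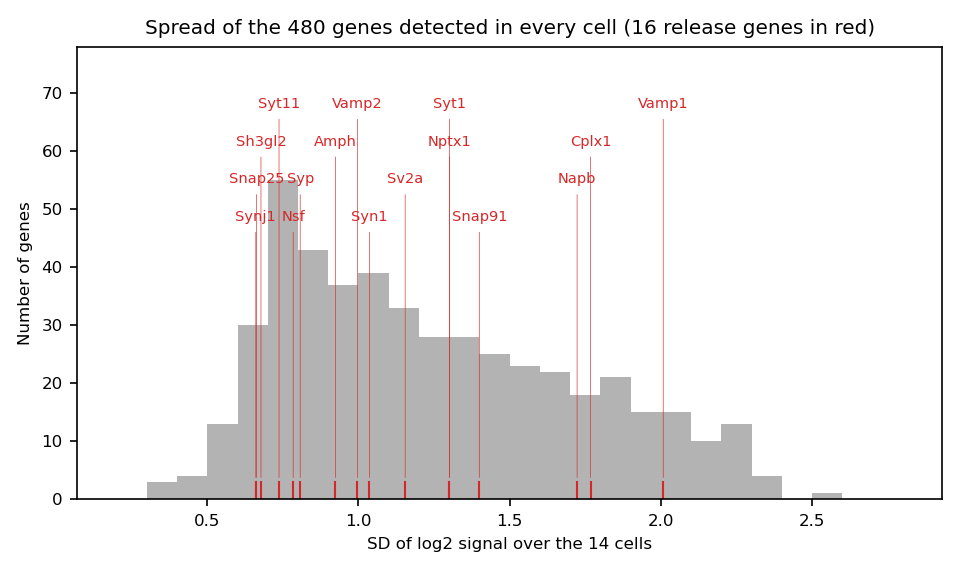
Histogram of the SD of the log2 signal over 14 cells for the chosen probe sets of the 480 genes detected in every cell (grey bars). The 16 vesicle release genes are marked by red ticks and names. Snap25, Synj1 and Sh3gl2 lie at the low end (0.66 to 0.68) and Napb, Cplx1 and Vamp1 at the high end (1.72 to 2.01).

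Between release genes of any kind, correlations were also of either sign and small in the median. Correlations of opposite sign offset each other in a median, so the median does not measure how strongly genes varied together. Over the 780 pairs of the 40 genes detected in at least 4 cells, r had a median of 0.02 (quartiles −0.25 and 0.30), and over all pairs of the 6883 genes detected in at least 4 cells it had a median of 0.09 (quartiles −0.14 and 0.29). The highest values were those of Cplx2 with Scamp1 (0.86), Napa (0.86) and Scamp5 (0.84), and they were 0.07, 0.06 and 0.22 without the 2 cells farthest from the Cplx2 median. Syn1 and Syp (r = 0.83, rho = 0.79, and 0.69 without the 2 farthest cells), whose promoters are printed above, and Napg with Dnajc5 (r = 0.83, rho = 0.75, and 0.78) stayed positive. With the number of genes detected, Syn1 and Syp had r of −0.77 and −0.83, and 8 further genes had r from −0.54 to −0.81, among them Snap25 (−0.69), Synj1 (−0.81) and Vamp2 (−0.81). Every array was scaled to the same trimmed mean of 500.0, and the part of this scaling was not tested.

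The lowest values were those of Vamp2 with Dnajc5 (−0.84), Vamp2 with Syt2 (−0.81, rho = −0.78, and −0.77 without the 2 farthest cells), Syt5 with Cplx1 (−0.81), Napb with Syp (−0.78) and Sh3gl2 with Unc13a (−0.77). In the pair Vamp2 and Syt2, cells 1, 2 and 7, with the 3 lowest Vamp2 signals of 3886, 4665 and 4986, all had Syt2, and cells 13 and 5, with the highest of 37917 and 28720, did not. With the number of genes detected, Vamp2 had r = −0.81, Dnajc5 r = 0.70 and Syt2 r = 0.73, and the part of depth in both pairs was not tested. With the Pvalb signal, Cplx2 had r = 0.89 (rho = 0.71, and 0.78 without the 2 farthest cells). Syt1 had r = 0.68 with Pvalb (rho = 0.04), which was −0.05 without the 2 farthest cells, and Syt2 had r = 0.30 (rho = 0.03), which was −0.17. Vamp1 had r = −0.39 and −0.72 without the 2 farthest cells. For Vamp2 the sign turned, from −0.40 to 0.28, and for Cplx1 r was 0.05 over all cells and 0.61 without the 2 farthest.

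The wider families were detected more often than all genes and less widely than the 42. Of 85 other genes of vesicle release, 79 had a probe set of their own, and 6 of these were found in every cell: Snap47, Cadps, which primes dense-core vesicles, Slc17a6, which loads vesicles with glutamate, Dnm3, the clathrin adaptor subunit Ap2m1, and the scaffold Lin7a. Those 6 are 7.595% of the 79, against 2.64% of all genes. In at least 7 cells 40 were detected (50.63%, against 24.8% of all genes), and 26 were detected in 1 to 6 cells. The 13 found in no cell were Snap23, Vamp8, Stx17, Syt6, Syt10, Syt17, Stxbp3, Cplx3, Cplx4, Cadps2, Syngr2, Syngr4 and Unc13d. The median over all 79 was 7 cells. Among 12 other synaptotagmins, 4 were detected in at least 7 cells, among them Syt7, a slow calcium sensor, in 13 cells at 246 to 31847. Among 17 other endocytosis genes, 13 were detected in at least 7 cells. Among 17 other active zone genes 8 were, and the Munc13 relative Unc13c was detected in 12 cells at 368 to 24653.

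Genes listed for ribbon synapses were detected in part. Of 9 such genes, 0 to 4 were detected per cell, and of all genes 13.96% to 37.65% were. In at least 7 cells, 3 of the 9 were detected (33.33%), against 24.8% of all genes. The ribbon complexins Cplx3 and Cplx4 and the calcium-binding protein Cabp4 were found in none, with highest signals in any cell of 53.5, 60.9 and 132, and Stx3, the ribbon syntaxin, was found in 3 cells. Ctbp2, which encodes the ribbon protein RIBEYE and a widely used corepressor, was detected in 9 cells. Rims2 was detected in 9 and Syt3 in 10, and both are also counted above among the other active zone genes and synaptotagmins. Slc17a7, the glutamate transporter of photoreceptors and bipolar cells, was detected in cells 3 and 6, at signals between 423 and 2717, which are the cells with 10 of 13 rod markers, and whether rod RNA was present there was not tested. The GABA transporter of vesicles, Slc32a1, passed the threshold in 3 cells, at 85.9 to 139, and read up to 145 in cells where it did not pass.

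Agreement among probe sets sets a limit to these counts. Of the 42 genes, 34 had several probe sets of their own and 8 had 1. Another probe set of the same gene shared 218 of 381 detections (57.2%), and in 10 of 95 non-detections (10.5%) another one was above threshold. For 7 genes every other probe set was detected in no cell. Absence of detection is not absence of the transcript, since rare transcripts can be lost during priming and amplification from a single cell.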

How the data were processed

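Each of the 14 cells was measured on 1 Affymetrix Mouse430_2 array. The deposited values are signal intensities per probe set on a linear scale, made by the authors with MAS5 in a version that the sources do not name, and the 2% trimmed mean was 500.0 on every array. Of 45101 probe sets, 64 controls were left out, 34945 had 1 gene symbol in the array's annotation, 932 had several and 9160 were unnamed here. Of those with 1 symbol, 34741 matched a mouse gene table of GRCm38.p6, and 18193 genes resulted. None of 378 values of control probe sets for other organisms (0 of 378) reached the threshold of 8 times the array median. Correlations were computed on log2(signal + 32). Cells are named by the labels' numbers, no 2 arrays held equal values, r between arrays was 0.34 to 0.68, and no source ties cells to animals. Arrays give no counts, so the number of cells limits the precision. The genes, the lists of related and marker genes and the pairs were chosen with earlier results of these data known. Named were all listed genes, related and marker genes by counts with examples, the 5 highest and 5 lowest pairs by r, and Pvalb. The alternatives were other thresholds, other rules for probe sets, quantile normalization, other pseudocounts, and leaving out cells 3 and 6 or cells 5 and 13, and, added after the data were seen, cell 13 for Vamp1 and cell 10 for Cplx1. The computation of detection and correlation was checked on simulated data. Simulated signals lay either under the threshold or well above it, so the detection rule itself was not tested. Promoters are from RefSeq. Python 3.11.15, numpy 2.4.6, pandas 2.3.3, scipy 1.17.1 and matplotlib 3.10.9 were used.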

Additional observations from a re-analysis of the deposited data

How the results depend on the processing

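The counts and medians were computed again under 12 alternatives, and 66 of 74 recomputed values stayed within 1.5 times the main count, or within the spread for a median r or a mean share. With the mean of all probe sets of a gene, 7 genes were detected in all cells and 1 in none, the mean share per cell was 65.1%, and the median r was 0.22 over paralog pairs and 0.15 over all pairs. At a fixed signal of 1000, 2 genes (Bin1 and Unc13a) were detected in no cell. Quantile normalization gave a median r of 0.0505 over all pairs, and leaving out cells 5 and 13 a median r of −0.21 over paralog pairs. Under the other alternatives 13 to 23 genes were detected in all cells, under all alternatives 30 to 37 in at least 7 cells (at least 6 of 12 where cells were left out), and 8 to 11 paralog pairs were discordant. The share of all genes moved as well, between 1.649% and 4.656% in all cells and between 15.32% and 32.36% in at least 7. Single genes moved most with the mean of all probe sets (9 of 42, among them Syt1 in 5 cells, Syt2 in 3, Napb in 9, Syn2 in 6, Snap91 in 7 and Bsn in 7) and at the fixed signal (7 of 42, among them Stx1a, Vamp3 and Syt5 in 2). Scamp1 was detected in 3 cells without probe sets that may bind related transcripts, and Syngr1 in 8 cells when any probe set counted. No paired analysis was possible because the cells form 1 group. Signals near the threshold, as for Unc13a, Dnm1 and Syngr1, limit what detection can show.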
